A study of Mus musculus with 2 samples.

Results

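The Mir148 and Mir152 family is a set of 3 mouse microRNA genes, Mir148a, Mir148b and Mir152, measured here by sequencing of small RNA from embryonic midbrain. The members were found by their gene symbols in the GENCODE annotation, by a rule that uses no measured value, and all 3 were among the 1973 microRNA genes of the count table. The study holds 1 group of 2 libraries, both from the midbrain of healthy embryonic day 12.5 mice of strain B6NCrl. Midbrains of 120 embryos made up replicate 1 and those of 88 embryos replicate 2, with both sexes mixed in each, and RNA shorter than 30 nucleotides was sequenced. The labels give both replicates the same donor label and do not say whether litters or dissections were shared. No treatment, genotype or other tissue was included, so the comparisons are among the members, between them and other microRNAs, and between the 2 pools.

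MicroRNAs are short RNAs that guide Argonaute proteins to messenger RNAs, mainly by pairing of the seed, the bases 2 to 8 from the 5′ end. A microRNA gene makes a hairpin from which Dicer releases a duplex, and each arm of the hairpin can give a mature strand. The miR-148 and miR-152 family is known for targeting Dnmt1, the maintenance DNA methyltransferase. It is also known for roles in lipid metabolism, in immune cells and in tumours, in which the promoters of its genes are often methylated.

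The mature 3′ arms are shown because they define the family. All 3 carried the same seed, given in capitals, and these are the RefSeq sequences for GRCm38.p6, in which all 3 members were matched.
miR-148a-3p: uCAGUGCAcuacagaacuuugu
miR-148b-3p: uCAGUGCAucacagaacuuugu
miR-152-3p: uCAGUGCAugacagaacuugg
Among the 1738 mature mouse sequences of the RefSeq table, these 3 were the only ones with this seed. They were identical from base 1 to base 8, and 18 of the 21 positions present in all 3 held the same base. Counting positions from 1 at the 5′ end and giving the first-named microRNA's base first, miR-148a-3p and miR-148b-3p differed by C9U and U10C. The sequences of miR-148b-3p and miR-152-3p differed by C10G and U20G, and those of miR-148a-3p and miR-152-3p by C9U, U10G and U20G. Over the first 19 bases, miR-148b-3p and miR-152-3p thus differed at 1 position. The sources used here do not give how many mismatches the alignment allowed.

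By position, the 5′ arms varied more, and they are shown to set that variation beside the 3′ arms, with bases 2 to 8 in capitals.
miR-148a-5p: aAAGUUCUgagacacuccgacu
miR-148b-5p: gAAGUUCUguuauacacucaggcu
miR-152-5p: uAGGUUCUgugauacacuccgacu
In position-by-position comparison from the 5′ end, miR-148a-5p and miR-148b-5p differed at 9 of 22 positions, and miR-148b-5p and miR-152-5p at 5 of 24. For miR-148a-5p and miR-152-5p it was 10 of 22, though their longest shared run was 11 bases, against 8 in each other pair. No gaps were allowed, and miR-148a-5p has 22 bases where the others have 24. Its counts of differences therefore include any shift in position. The seed of the 5′ arm was the same in Mir148a and Mir148b and differed in Mir152.

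The hairpins are printed because the deposited counts are per hairpin gene, with reads of both arms in 1 number. Capitals mark the mature arms, the 5′ arm first.
Mir148a hairpin: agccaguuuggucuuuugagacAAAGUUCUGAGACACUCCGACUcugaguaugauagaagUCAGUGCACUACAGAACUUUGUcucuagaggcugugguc
Mir148b hairpin: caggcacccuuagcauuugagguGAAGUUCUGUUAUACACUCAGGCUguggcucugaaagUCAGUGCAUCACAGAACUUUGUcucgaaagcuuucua
Mir152 hairpin: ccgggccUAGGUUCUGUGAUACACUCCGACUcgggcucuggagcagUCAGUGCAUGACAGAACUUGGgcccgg
The Mir152 hairpin was the shortest, with 73 bases against 97 for Mir148b and 99 for Mir148a. It also had the highest GC content, 61.6% against 45.4% for Mir148b and 45.5% for Mir148a. None of the 3 shared a run of 20 bases, on either strand, with any of the 2201 other annotated microRNA hairpins. The longest run was 15 bases, shared between Mir148a and Mir148b. For Mir152 it was 13 bases, shared with the reverse complement of Mir3473f. Reads that align to several places were assigned to no gene in these files, and by this measure a full-length read of a member had 1 exactly matching microRNA hairpin. The search allowed no mismatch and covered annotated microRNA hairpins only. It therefore does not show how reads with mismatches were assigned between the members.

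On mm10, Mir148a (ENSMUSG00000065505.1) lies on the minus strand of chromosome 6 from 51269812 to 51269910, with no host gene annotated on its strand. The nearest annotated gene that does not overlap it is the long non-coding RNA Gm32479, 13621 bp away on the same strand. Genes overlapping it on the other strand were not looked for. Mir148b (ENSMUSG00000065560.1) lies on the plus strand of chromosome 15 from 103285125 to 103285221, in intron 1 of Copz1. Mir152 (ENSMUSG00000065515.1) lies on the plus strand of chromosome 11 from 96850393 to 96850465, in intron 1 of Copz2. Copz1 and Copz2 encode the zeta subunits of the coatomer, the coat of vesicles that move between the Golgi and the endoplasmic reticulum. The intron around Mir148b is 16159 bp long and the microRNA begins 12183 bp after the first exon. The intron around Mir152 is 676 bp long and the microRNA begins 396 bp after the first exon. Neither overlapped an exon of any annotated host transcript that spans it. The closest other annotated microRNA lay 65233 bp from Mir148b, 213302 bp from Mir152 and 351721 bp from Mir148a, so none of the 3 sits in a microRNA cluster.

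The 3 members also shared their gene neighbourhood, which the choice by symbol did not use. On 1 side of each, the nearest protein-coding gene, the host aside, was of the Nfe2 family of transcription factors. On the same side followed a Cbx gene for a heterochromatin protein and then a copy of the microRNA Mir196. Other genes lie between or nearer, such as Gm32479 beside Mir148a and Gpr84, 23013 bp from Mir148b on the other side. The Nfe2 family gene was Nfe2l1 at 20.4 kb from Mir152, Nfe2 at 26.7 kb from Mir148b and Nfe2l3 at 163 kb from Mir148a. The Cbx gene was Cbx1 at 41.8 kb from Mir152, Cbx5 at 45.3 kb from Mir148b and Cbx3 at 200.4 kb from Mir148a. The Mir196 copy was Mir196a-2 at 312 kb from Mir148b, Mir196a-1 at 585 kb from Mir152 and Mir196b at 960.2 kb from Mir148a. These copies were at 0 CPM for Mir196a-1 on chromosome 11, 1.90 ± 0.85 CPM for Mir196a-2 on chromosome 15 and 48.7 ± 13.8 CPM for Mir196b on chromosome 6 (SD, n = 2). The first 2 share 20 bases with another hairpin, so reads that matched several copies are missing from their values. The neighbouring families and the Mir196 copies were picked after the neighbourhood was seen.

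**Figure D1:**
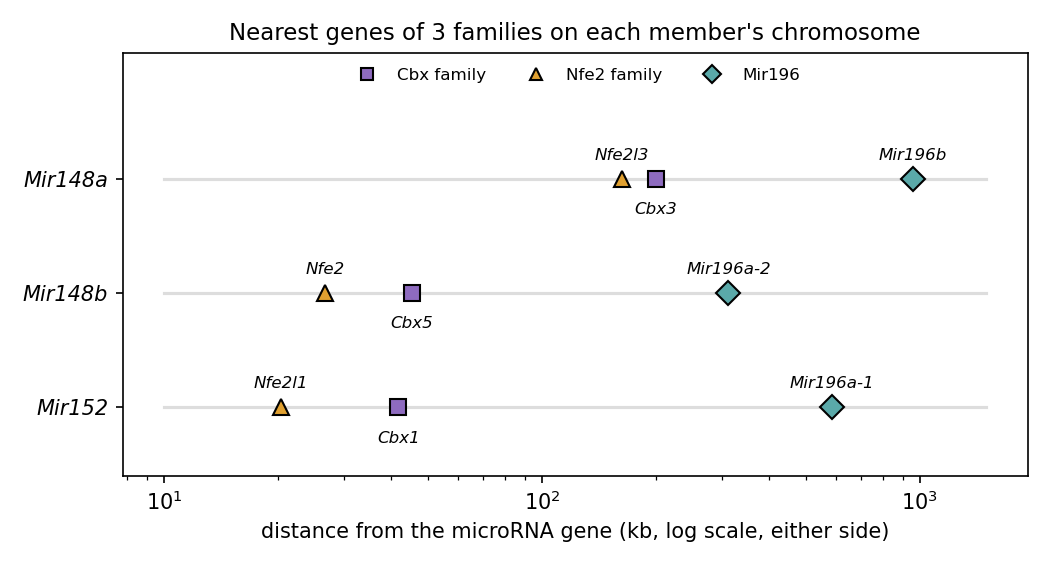
Distance in kb (log scale, either side) from each member to the nearest gene of the Nfe2 family, the Cbx family and Mir196 on its chromosome, from the GENCODE annotation. In each row the 3 symbols stand in the same order, from the Nfe2 family gene at 20.4 to 163 kb to Mir196 at 312 to 960 kb.

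All 3 members were detected in both libraries, at moderate and low levels. Values are CPM, own-strand counts per 1000000 own-strand counts assigned to microRNA genes. A read is taken to come from a whole short RNA and not from a piece of a longer one, so no correction for length was made. Mir148a had 1536 counts in replicate 1 and 1245 in replicate 2. That is 332 CPM (95% Wilson interval 316 to 349) and 444 CPM (419.8 to 469), with a mean of 388 ± 79.2 CPM (SD, n = 2). Its counting intervals in the 2 libraries did not overlap. Mir148b had 1310 and 756 counts, or 283 CPM (268 to 299) and 269 CPM (251 to 289), with a mean of 276 ± 9.55 CPM. Mir152 had 348 and 261 counts, or 75.2 CPM (67.7 to 83.5) and 93.0 CPM (82.4 to 105), with a mean of 84.1 ± 12.6 CPM. The order was Mir148a, Mir148b, Mir152 in both libraries, and the values of neighbouring members did not overlap. With 2 values each, an unpaired exact test of 2 against 2 could not go below a two-sided p of 0.333. Such a test also ignores that the members were measured in the same 2 libraries. No test over libraries was run, and this order rests on counting intervals that are apart in each library. Counts measure reads rather than molecules, and in bulk tissue fewer cells of a type and less RNA per cell cannot be told apart.

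**Figure D2:**
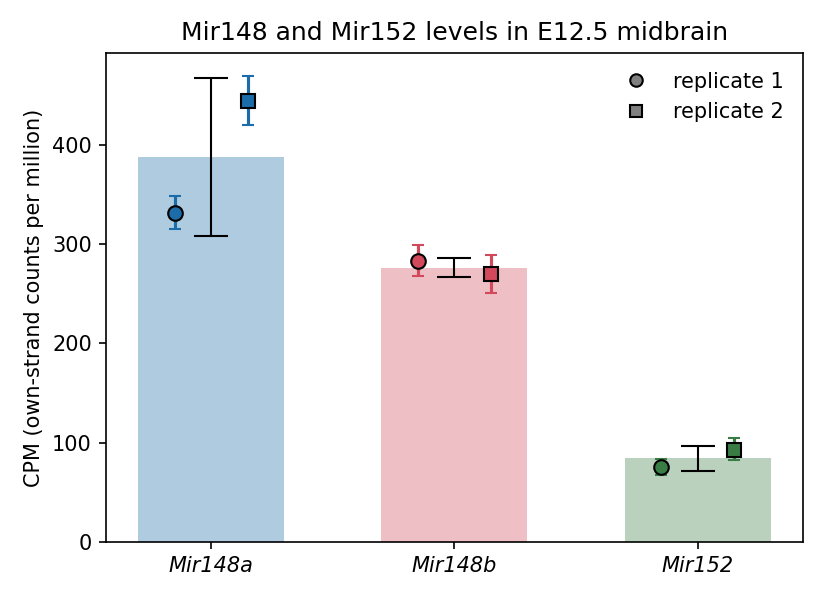
CPM of each member, with bars for the mean of 2 replicates, black error bars for the SD, and points for each replicate with its 95% Wilson interval. Mir148a stands highest and Mir152 lowest in both replicates. The intervals of the 2 replicates overlap for Mir148b, at 283 and 269 CPM, and for Mir152, and do not overlap for Mir148a.

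By mean CPM, Mir148a ranked 148, Mir148b 167 and Mir152 233 among the 1973 genes, of which 380 had at least 10 counts in both libraries and are called quantified. In single libraries the ranks ran from 159 to 141 for Mir148a, from 166 to 161 for Mir148b and from 235 to 225 for Mir152. None of the members was near the floor: 3 counts, the upper limit that a count of 0 allows, correspond to 0.648 CPM in replicate 1 and 1.07 CPM in replicate 2. The genes next to Mir148a in level were Mir3074-1 and Mir7b above it (403 ± 53.6 and 397 ± 184 CPM) and Mir101a and leukocyte Mir223 below it (383 ± 8.84 and 352 ± 96.5 CPM). Next to Mir148b were Mir138-1 and Mir9-3 (292 ± 110 and 281 ± 49.3 CPM) above, and Mir155 and Mir135a-2 (249.9 ± 20.8 and 245 ± 12.5 CPM) below. Next to Mir152 were Gm23935 and Mir758 (85.8 ± 40.6 and 84.7 ± 28.6 CPM) above, and Mir3072 and Mir103-2 (82.1 ± 1.29 and 82.1 ± 32.4 CPM) below. These 12 neighbours were chosen by rank of mean CPM over the 2 libraries. The mean of each member lay within 1 SD, its own or the neighbour's, of the genes beside it, except for Mir148b above Mir155 and Mir135a-2. Of the 12, Mir3074-1, Mir101a, Mir138-1, Mir9-3, Mir135a-2, Gm23935, Mir758 and Mir103-2 share 20 bases with another hairpin, and their counts omit reads that matched several copies.

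**Figure D3:**
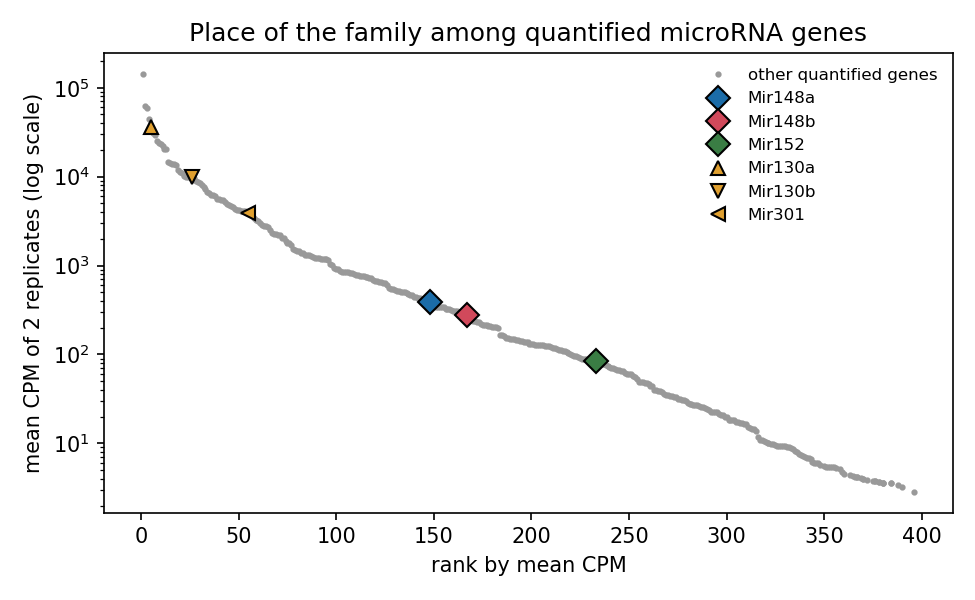
Mean CPM of 2 replicates (log scale) against rank for the quantified genes, with the 3 members as diamonds and 3 microRNAs whose first 7 bases equal the family's seed as triangles. The members lie between ranks 148 and 233, and Mir130a, Mir130b and Mir301 between ranks 5 and 55.

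The letters of the family's seed also open the miR-130 and miR-301 family. There they stand at bases 1 to 7 in place of 2 to 8, so the seed of that family is shifted by 1 base. Relatives were looked for in the RefSeq table only, and the 3 of them with counts here are shown with the shared letters in capitals.
miR-130a-3p: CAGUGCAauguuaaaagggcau
miR-130b-3p: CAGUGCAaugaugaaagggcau
miR-301a-3p: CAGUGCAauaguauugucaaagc
Of the RefSeq mature sequences, 7 began with these letters, and 17 of the 1738 (0.978%) held CAGUGCA anywhere on the mature strand. The relatives were far more abundant than the members, with 36147 ± 1967 CPM for Mir130a, 9777 ± 616 CPM for Mir130b and 3939 ± 600.3 CPM for Mir301 (SD, n = 2). All 3 were lower in replicate 2, with log2 ratios of -0.11 ± 0.01, -0.13 ± 0.01 and -0.31 ± 0.02 (counting SE). Of all tested genes, 27.1% were called lower, and no difference between the 2 families was tested.

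The family summed to 690.0 CPM in replicate 1 (95% Wilson interval 666 to 714) and 806 CPM in replicate 2 (774 to 840.2), or 748 ± 82.3 CPM (SD, n = 2). This was 0.0748% of assigned counts on average. Mir148a held 48.1% of the family's counts in replicate 1 (46.4 to 49.8%) and 55.0% in replicate 2 (53.0 to 57.1%). Mir148b held 41.0% (39.3 to 42.7%) and 33.4% (31.5 to 35.4%). Mir152 held 10.9% (9.86 to 12.0%) and 11.5% (10.3 to 12.9%). The intervals of the Mir148a and Mir148b shares did not overlap between the libraries, and those of Mir152 did. The 3 shares sum to 100%, so a higher share of Mir148a has to lower another, and the level of Mir148b itself was 283 and 269 CPM. The shares do not depend on the library total.

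**Figure D4:**
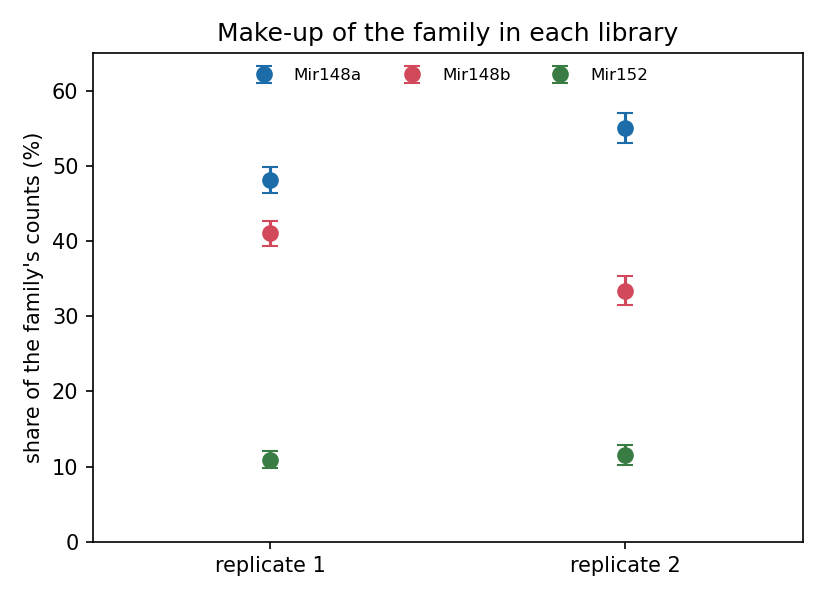
Share of the family's summed counts held by each member in each replicate, in percent, with 95% Wilson intervals. Mir148a goes from 48.1 to 55.0% and Mir148b from 41.0 to 33.4%, while Mir152 stays between 10.9 and 11.5%.

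Put as ratios of counts, there were 1.17 reads of Mir148a for each read of Mir148b in replicate 1 (95% interval 1.09 to 1.26) and 1.65 in replicate 2 (1.505 to 1.80). The 2 coatomer-hosted members, Mir148b and Mir152, stood at 3.76 to 1 (3.34 to 4.24) and 2.90 to 1 (2.52 to 3.33). For Mir148a and Mir152 the ratios were 4.41 (3.93 to 4.96) and 4.77 (4.17 to 5.45), with overlapping intervals. On the log2 scale the Mir148a to Mir148b ratio differed between the libraries by 0.49 ± 0.09 (counting SE), and the Mir148b to Mir152 ratio by -0.38 ± 0.14. The difference for Mir148a to Mir152 was 0.11, with a 95% interval of -0.14 to 0.37. The replicates thus kept the order of the members but not the proportion of Mir148b to the other members. Intervals cover counting error only and treat reads as independent, although reads copied by PCR are not independent molecules.

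To set the members' difference between the libraries against counting noise, Fisher's exact test (two-sided) was run on all 380 quantified genes, with Benjamini-Hochberg adjustment. The test concerns these 2 libraries and compares no conditions. It called 206 genes, or 54.2% of those tested, with 27.1% higher in replicate 2 and 27.1% lower. Mir148a was called higher in replicate 2, at 1.34-fold (95% interval 1.24 to 1.44, log2 ratio 0.42 ± 0.06, counting SE, adjusted p = 1.57e-13 by Fisher's exact test). Mir152 was also called higher, at 1.24-fold (1.05 to 1.45, log2 ratio 0.31 ± 0.12, adjusted p = 0.0194 by Fisher's exact test). Mir148b was not called, with a log2 ratio of -0.07 ± 0.07 and an adjusted p of 0.390 by Fisher's exact test. Its ratio had a 95% interval of 0.871 to 1.04. With 2 of 3 members called where 54.2% of all genes were, nothing particular to the family is read from the count. The background share rises with depth: it was 26.7% with no count minimum and 72.6% among genes with at least 100 counts in both libraries, which all 3 members had. Among the 40 genes nearest in mean CPM, 32 were called around Mir148a, 27 around Mir148b and 22 around Mir152.

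**Figure D5:**
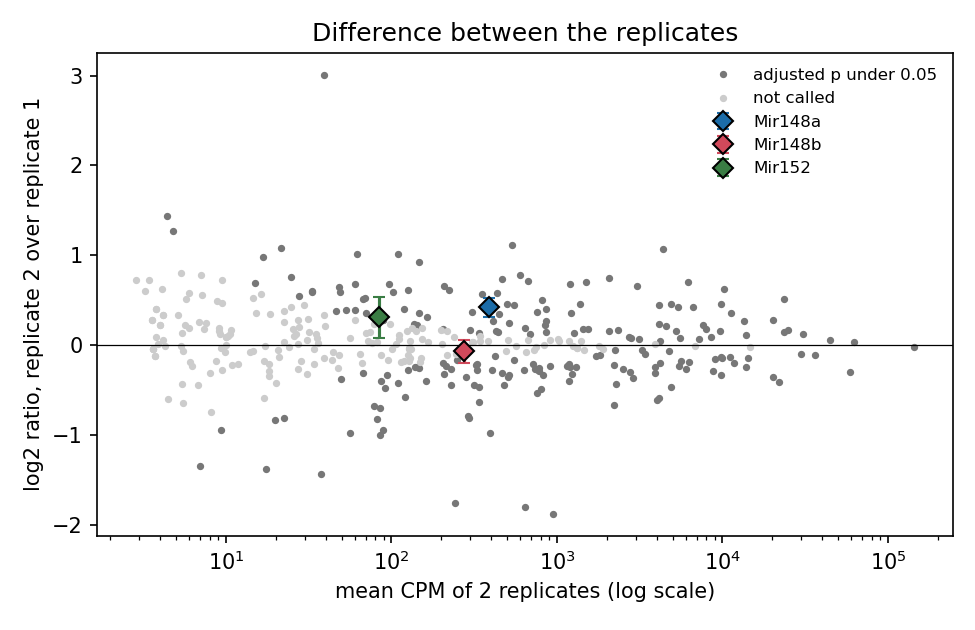
Log2 ratio of replicate 2 over replicate 1 against mean CPM (log scale) for the 380 tested genes, dark where the adjusted p was under 0.05, with the members as diamonds and their 95% counting intervals. Mir148a at 0.42 and Mir152 at 0.31 lie above 0 and Mir148b at -0.07 lies beside it, all within the cloud of genes at their level.

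The size of these differences was ordinary for this pair of libraries. The median absolute log2 ratio over all tested genes was 0.24, and the middle 50% of genes ran from 0.11 to 0.44. A larger absolute ratio than that of Mir148a was found for 26.8% of tested genes, than that of Mir152 for 38.4%, and than that of Mir148b for 83.2%. Among the 40 genes nearest in mean CPM, 13 had a larger absolute ratio than Mir148a, 20 than Mir152 and 34 than Mir148b. With the sign kept, the median log2 ratio over the members was 0.31, beside 0.04 over all tested genes. Neither value is a test of the family. No member had a second pair of pools against which the difference could be checked.

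MicroRNAs of other cell types differed between the same 2 libraries, in which 27.1% of all tested genes were called higher in replicate 2 and 27.1% lower. Of 7 epithelial microRNAs, 6 were called higher in replicate 2 and 1 was not called, with summed levels of 2764 CPM in replicate 1 and 3549 CPM in replicate 2, led by Mir203. Of 7 mesenchymal microRNAs, 6 were called higher and 1 was not called (15707 and 23591 CPM, led by Mir143). In both lists most quantified members were called higher in replicate 2, and the same held in the leukocyte and Hox cluster lists. Of the family, Mir148a and Mir152 were called higher and Mir148b was not called. Of 4 leukocyte microRNAs found by symbol out of 5 listed, 3 were higher and 1 lower (607 and 769 CPM, led by Mir223). All 4 quantified Hox cluster microRNAs were higher (225 and 419 CPM over 6 members, led by Mir10a, with Mir196a-1 at 0). Endothelial Mir126a (23434 and 26243 CPM) and liver Mir122 (8.64 and 69.5 CPM) were higher too. The erythroid list had 1 higher, 1 lower and 1 not called (413 and 271 CPM, led by Mir451a). In these lists, 3 mesenchymal, 1 leukocyte and 2 Hox cluster microRNAs share 20 bases with another hairpin. The sums of those lists omit reads that matched several copies. The part of these cells in the Mir148a and Mir152 differences was not tested.

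Neural microRNAs were present in both libraries, whose tissue label is midbrain. The 11 of 12 listed neural genes found by symbol summed to 11983 and 12326 CPM, led by Mir137. Of these, 4 were called lower in replicate 2, 3 higher and 2 neither way, and 2 were not quantified. All 11 had counts in both libraries, and 9 of them, the copies of Mir9, Mir124a, Mir128 and Mir219a among them, share 20 bases with another hairpin. The counts of these 9 omit reads that matched several copies, so the neural sum and its leading gene hold for the remaining reads only. This sum is not ranked against those of the other lists.

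Another microRNA family tied to DNA methylation is the Mir29 family, known for targeting the de novo methyltransferases Dnmt3a and Dnmt3b. Its 4 members summed to 214 CPM in replicate 1 and 227 CPM in replicate 2. Mir29c (128 ± 1.87 CPM) and Mir29a (88.8 ± 12.0 CPM) were quantified, and Mir29a was called higher in replicate 2 (log2 ratio 0.28 ± 0.11, counting SE) while Mir29c was not called. Of the 4, Mir29b-1, Mir29b-2 and Mir29c share 20 bases with another hairpin, so this sum omits reads that matched several copies, and it is not ranked against the sum of the Mir148 and Mir152 family.

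The placing of Mir148b and Mir152 in introns of paralogous genes is shared by other microRNA families, for which 12 genes were listed from the Pank, Ctdsp, R3hdm1 and Arpp21, Slit and Myh hosts. Of the 12, 5 passed the test, 3 of them higher in replicate 2 and 2 lower, while 6 did not pass and 1 was not quantified, beside 54.2% called over all genes. Their median log2 ratio was 0.18. Their levels spanned Mir26b at 23528 ± 1664 CPM, which lies in a phosphatase gene, down to Mir26a-1 at 4.41 ± 1.70 CPM. Of the 12, 9 share 20 bases with another hairpin, and Mir26b, Mir208a and Mir208b do not. Mir208a and Mir208b, the microRNAs of the cardiac myosin genes, stood at 7.19 ± 1.92 and 25.5 ± 2.20 CPM. They are the only pair among these 12 genes in which both microRNAs, like Mir148b and Mir152, share no run of 20 bases. Neither Mir208a nor Mir208b passed the test between the libraries.

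Reads on the strand opposite to the members were almost absent. Mir148a and Mir148b had 0 in both libraries and Mir152 had 2 in replicate 1 and 0 in replicate 2, below the floor of 3 counts.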

How the data were processed

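Small RNA from 2 pools of embryonic day 12.5 midbrain was sequenced. The authors deposited raw, unnormalized read counts for each microRNA gene. These derive from alignments to mm10 with annotation release M4, per the deposited read-me files, and the aligner is not given in the sources used here, nor is the counter. Column 3, reads on the gene's own strand, was used. Replicate 1 held 4629302 assigned counts of 10743770 reads and replicate 2 held 2805487 of 6717347. Rows naming no gene (56.9% and 58.2% of reads, with multimapping reads at 33.4% in each) stayed out of totals and tests.

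Symbols, positions and hairpin runs came from GENCODE M21 (GRCm38, the same assembly as mm10), which held 1894 of 1973 identifiers; the mature sequences came from RefSeq. Intervals are 95% Wilson intervals on counts; those of fold ratios between libraries are normal intervals on the log2 scale from the counting SE. Fisher's exact test with Benjamini-Hochberg adjustment (threshold 0.05, SciPy 1.17.1) was run on genes with at least 10 counts in both libraries, and was tested on simulated data. TMM factors (edgeR 4.0.16) and DESeq2 1.42.0 size factors were alternatives, as were either-strand counts, other totals and other count minimums. The p-values of Fisher's exact test measure read-counting error only, with reads taken as independent, and use no spread between libraries. The named genes are the members, their seed relatives, the 2 genes above and below each member in mean CPM, 2 related lists and the leading gene of each cell type list; any other gene was named after its values or place were seen. Some annotated neighbours are not reported here. The members and lists were chosen with earlier results of these data known.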

Additional observations from a re-analysis of the deposited data

How the results depend on the processing

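The log2 ratios of the 3 members kept their direction and call under every alternative run for them. The total of all reads was used for levels only, so the calls were not tested with it. With the total used, 7 levels moved by more than the SD between replicates. With all reads of the library as the total, the mean levels were 164 reads per 1000000 for Mir148a, 117 for Mir148b, 35.6 for Mir152 and 317 for the family. Without the most abundant gene in the total, they were 322 CPM for Mir148b, 98.1 CPM for Mir152 and 873 CPM for the family. Both changes follow from the size of the total. Leaving out 1 of 2 replicates returns the other's value and is no check of stability: these were 332 to 444 CPM for Mir148a, 269 to 283 for Mir148b, 75.2 to 93.0 for Mir152 and 690.0 to 806 for the family. Over the alternatives for counting, totals and filters, the adjusted p by Fisher's exact test ran from 1.13e-13 to 1.45e-11 for Mir148a, from 0.0145 to 0.0416 for Mir152 and from 0.168 to 0.596 for Mir148b. Genes called numbered 196 to 214, of 270 to 746 tested, and 44.3% of them were higher in replicate 2 with DESeq2 size factors against 50.0% with plain totals. No paired analysis of conditions was possible because there is 1 group. Depth limits Mir152 most: its 261 counts in replicate 2 give the widest interval relative to its level.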
